A study of Mus musculus with 2 samples.

Results

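The T cell receptor variable genes are the Trbv genes on mouse chromosome 6 and the Trav genes on chromosome 14. All features whose symbol starts with Trbv or Trav were taken, which gave 35 Trbv and 128 Trav genes, 163 of the 32285 genes measured. They were read in single live CD45+ immune cells sorted from orthotopic liver tumours of the mouse hepatoma line Hepa1-6. These grew in C57/BL6 mice of WT genotype that had received either an antibody against PD-1 or an isotype control antibody. Each antibody group was 1 droplet library labelled replicate 1, so there was no test between groups, and all intervals below are 95% intervals that cover counting error only. The labels do not say how many mice went into a library, how old they were or when the antibody was given. Since a repertoire belongs to 1 animal, differences between these libraries cannot be told apart from differences between mice.

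A T cell builds its receptor by cutting and joining gene segments in its own DNA. The beta chain joins 1 Trbv segment with diversity and joining segments to the constant genes Trbc1 or Trbc2, and the alpha chain joins 1 Trav segment with a joining segment to Trac. Daughter cells inherit both joined chains, so cells of 1 clone carry the same Trbv and Trav segments, while the reverse does not hold. Some Trav segments, named dv, can also join the delta chain of gamma-delta T cells.

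The anti-PD-1 library held 10149 barcodes and 72148493 unique molecular identifiers (UMIs, each standing for 1 captured RNA molecule), and the isotype library 9683 barcodes and 67520433 UMIs. After filters on depth, mitochondrial share and doublets, 9701 and 9278 cells were kept. Of the barcodes, 140 occurred in both libraries, and 0 of these were gated T cells of the 3 kinds below in both. T cells were gated on at least 2 of the genes Cd3d, Cd3e and Cd3g, which encode the signalling chains of the receptor, and no V gene was used for gating. CD8 T cells had Cd8a or Cd8b1 and neither Cd4 nor Foxp3, conventional CD4 T cells had Cd4 without Cd8a, Cd8b1 or Foxp3, and regulatory T cells had Foxp3 without Cd8a or Cd8b1. With anti-PD-1 the gates held 200, 186 and 72 cells, and with isotype 70, 196 and 56. Median depth in the same order was 10790, 8995 and 5970 UMIs per cell against 8094, 6618 and 7038.

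Stretches of the coding sequences of 6 V genes are shown because combinations of them recurred in several cells of 1 library, as described further on. They are from GENCODE vM21 on mm10 (GRCm38), written 5′ to 3′, and are the last 300 bases of each coding sequence, which 2 exons hold. Capitals mark the end of the segment from its conserved cysteine codon, the first in-frame cysteine codon of the last 30 bases, where the junction with the next segment begins. Trbv13-1 (ENSMUSG00000076467) lies at chr6:41116007-41116468, Trbv1 (ENSMUSG00000076461) at chr6:40891229-40891885 and Trbv20 (ENSMUSG00000076476) at chr6:41188273-41188977. Trav4-3 (ENSMUSG00000093966) lies at chr14:53598828-53599410, Trav3-1 (ENSMUSG00000076760) at chr14:52580665-52581213 and Trav7-4 (ENSMUSG00000094766) at chr14:53461099-53461738. All 6 genes are on the plus strand.
Trbv13-1: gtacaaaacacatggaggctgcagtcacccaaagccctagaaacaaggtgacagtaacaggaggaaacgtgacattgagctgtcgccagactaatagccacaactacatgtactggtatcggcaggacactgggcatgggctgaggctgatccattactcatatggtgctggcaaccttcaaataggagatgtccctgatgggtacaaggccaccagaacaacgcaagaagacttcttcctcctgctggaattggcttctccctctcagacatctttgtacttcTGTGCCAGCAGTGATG
Trav4-3: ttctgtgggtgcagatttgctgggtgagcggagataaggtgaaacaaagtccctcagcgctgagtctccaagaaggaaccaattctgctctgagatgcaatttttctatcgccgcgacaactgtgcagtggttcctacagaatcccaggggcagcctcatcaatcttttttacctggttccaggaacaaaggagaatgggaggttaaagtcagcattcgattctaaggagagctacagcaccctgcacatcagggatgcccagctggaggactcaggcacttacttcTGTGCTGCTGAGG
Trbv1: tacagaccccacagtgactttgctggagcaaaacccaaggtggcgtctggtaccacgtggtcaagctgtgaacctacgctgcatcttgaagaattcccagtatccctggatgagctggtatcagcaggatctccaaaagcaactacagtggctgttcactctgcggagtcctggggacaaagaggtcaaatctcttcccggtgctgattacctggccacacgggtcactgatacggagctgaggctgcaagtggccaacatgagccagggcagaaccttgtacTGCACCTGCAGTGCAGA
Trav3-1: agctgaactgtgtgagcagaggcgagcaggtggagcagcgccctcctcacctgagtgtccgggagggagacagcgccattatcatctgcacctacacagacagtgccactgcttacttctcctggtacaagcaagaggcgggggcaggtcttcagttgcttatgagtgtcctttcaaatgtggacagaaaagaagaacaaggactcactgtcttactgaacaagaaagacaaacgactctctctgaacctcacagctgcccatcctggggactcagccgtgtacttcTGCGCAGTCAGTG
Trbv20: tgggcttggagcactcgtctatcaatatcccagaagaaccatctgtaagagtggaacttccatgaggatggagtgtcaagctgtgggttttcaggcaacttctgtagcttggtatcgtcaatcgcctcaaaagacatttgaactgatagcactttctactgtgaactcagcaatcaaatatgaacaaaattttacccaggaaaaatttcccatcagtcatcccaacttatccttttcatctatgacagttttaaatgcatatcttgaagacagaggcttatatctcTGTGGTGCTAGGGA
Trav7-4: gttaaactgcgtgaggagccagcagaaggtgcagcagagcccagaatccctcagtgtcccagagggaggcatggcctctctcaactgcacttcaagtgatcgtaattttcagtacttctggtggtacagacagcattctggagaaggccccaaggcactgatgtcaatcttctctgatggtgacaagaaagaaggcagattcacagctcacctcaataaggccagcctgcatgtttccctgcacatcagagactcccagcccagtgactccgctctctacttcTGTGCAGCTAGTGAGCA

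Trbv transcripts were found in nearly all alpha-beta T cells. In the CD8 gate 193 of 200 cells of the anti-PD-1 library (96.5%, exact Clopper-Pearson interval 92.9 to 98.6) and 67 of 70 cells of the isotype library (95.7%, 88.0 to 99.1) had a UMI of any Trbv gene. Among conventional CD4 cells the counts were 179 of 186 (96.2%, 92.4 to 98.5) and 180 of 196 (91.8%, 87.1 to 95.3). Among regulatory T cells they were 65 of 72 (90.3%, 81.0 to 96.0) and 47 of 56 (83.9%, 71.7 to 92.4). Trav transcripts were found less widely. Shares with any Trav UMI were 74.0% (67.3 to 79.9) and 75.7% (64.0 to 85.2) of CD8 cells, 82.8% (76.6 to 87.9) and 78.1% (71.6 to 83.6) of conventional CD4 cells, and 75.0% (63.4 to 84.5) and 83.9% (71.7 to 92.4) of regulatory T cells. The intervals of the libraries overlapped in each gate for both chains. After thinning each cell to 1000 UMIs, which left out 1 conventional CD4 cell of the isotype library, any Trbv UMI was seen in 62.5% and 67.1% of CD8 cells, 58.1% and 58.5% of conventional CD4 cells and 48.6% and 39.3% of regulatory T cells. Both chains were found together in 143 and 51 CD8 cells, 149 and 143 conventional CD4 cells and 51 and 42 regulatory T cells.

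The B, NK, myeloid and neutrophil gates, taken only from cells without a UMI of Cd3d, Cd3e or Cd3g, had almost none of these transcripts. Kept cells that fell in no gate are not counted here. Of B cells, 0 of 48 in each library had a Trbv UMI, which allows a share of up to 6.25% by a limit of 3 counts (exact Clopper-Pearson upper bound 7.40%). Of myeloid cells, 6 of 4541 (0.132%) with anti-PD-1 and 9 of 4039 (0.223%) with isotype had a Trbv UMI, at median depths of 8576 and 9057 UMIs, and of neutrophils 6 of 1718 (0.349%) and 8 of 1807 (0.443%), at 2146 and 2011 UMIs. Among NK cells, 0 of 44 and 1 of 42 cells had one. In these 12287 cells Trbv1 was the V gene found most often, in 15 cells of which 11 were neutrophils, followed by Trbv13-1 in 3 cells, and Trbv12-2, Trbv13-3 and Trbv2 in 2 cells each, always as 1 UMI per cell.

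UMIs of the variable segments outnumbered those of the constant genes. Summed Trbv UMIs were 3433 in CD8 cells of the anti-PD-1 library beside 674 UMIs of Trbc1 and Trbc2, and 1046 beside 207 in the isotype library. Over the 3 gates and both libraries there were 4.22 to 5.77 Trbv UMIs for each Trbc UMI and 1.96 to 3.28 Trav UMIs for each Trac UMI, as counts without correction for length. The labels name a 3′ protocol, in which reads fall near the far end of a transcript, and the place of the reads within the transcripts was not analysed here. The 76 diversity and joining segments among the features had 0 UMIs in both libraries, so a V gene is known here but its junction is not.

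Of the 35 Trbv genes, all 22 annotated as coding V genes were found in at least 1 cell of the 3 gates, 19 of them in 10 or more cells, and 2 of the 13 pseudogenes were found, Trbv24 in 7 cells and Trbv22 in 1. Of the 128 Trav genes, 67 of 108 coding genes and 5 of 20 pseudogenes were found. The Trav locus of this mouse strain holds duplicated blocks, whose copies carry d or n in their names. Detection went with how far a gene's transcript could be told from its copies. Of 38 Trav genes without any 90-base window of their own among all Trav and Trbv transcripts, 37 had no UMI in the 3 gates and Trav9n-3 had 1. Of the 68 Trav genes with at least 50% of windows unique, 55 were found. Of the 41 coding Trav genes without a UMI in the gates, 33 had no unique window. Reads of near-identical copies could have been counted for 1 of them or discarded, so values of single Trav copies are uncertain where windows are shared, as for Trav7-4 (49.7% unique, 99.6% identical to Trav7d-4) and Trav6-5 (31.5%, 98.8% identical to Trav6n-5). By contrast, Trav4-3 and all Trbv genes named here had 100% unique windows.

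**Figure D1:**
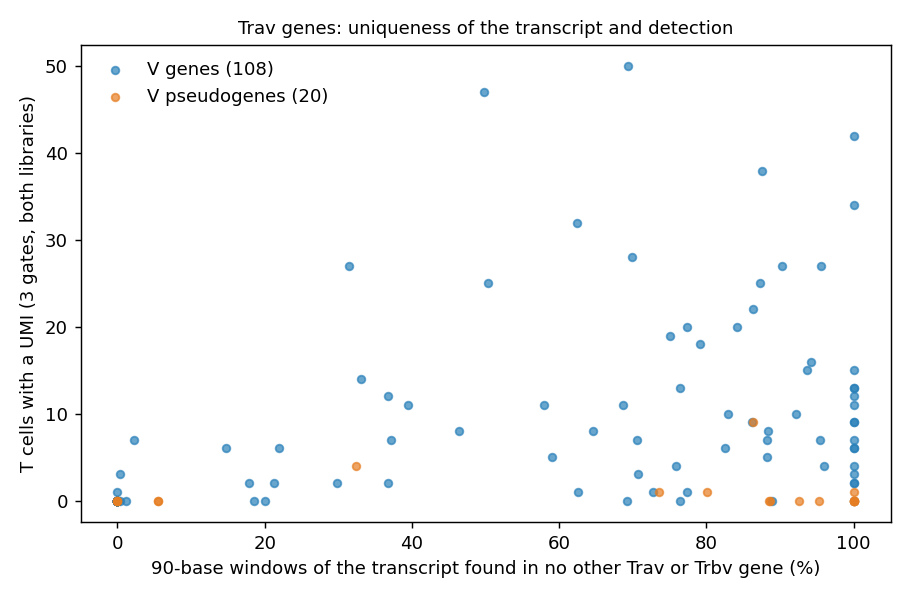
Each point is 1 of the 128 Trav genes. The x axis gives the percentage of 90-base windows of its transcript that no other Trav or Trbv transcript holds, and the y axis the number of CD8, conventional CD4 and regulatory T cells of both libraries with a UMI of it. Genes at 0% unique windows lie at 0 cells or 1 cell.

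Trav11, the segment of the semi-invariant receptor of NKT cells, is a case of this. It had 0 UMIs in both libraries, and so did its copy Trav11d. The ends of the coding sequences of Trav11 (ENSMUSG00000096615, chr14:53519303-53519859) and Trav11d (ENSMUSG00000095088, chr14:52824357-52824912) are shown to make the problem visible, both from base 44. The genes share a run of 342 bases, the whole of Trav11d, and Trav11 is annotated with 1 more base, in capitals. Only 0.39% of the windows of Trav11 were unique. Nothing about NKT cells was read from its count of 0.
Trav11: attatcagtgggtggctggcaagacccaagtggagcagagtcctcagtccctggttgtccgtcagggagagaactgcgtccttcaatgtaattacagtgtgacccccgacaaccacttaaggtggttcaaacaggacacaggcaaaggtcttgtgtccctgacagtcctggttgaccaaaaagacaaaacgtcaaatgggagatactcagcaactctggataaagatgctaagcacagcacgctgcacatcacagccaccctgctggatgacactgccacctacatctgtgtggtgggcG
Trav11d: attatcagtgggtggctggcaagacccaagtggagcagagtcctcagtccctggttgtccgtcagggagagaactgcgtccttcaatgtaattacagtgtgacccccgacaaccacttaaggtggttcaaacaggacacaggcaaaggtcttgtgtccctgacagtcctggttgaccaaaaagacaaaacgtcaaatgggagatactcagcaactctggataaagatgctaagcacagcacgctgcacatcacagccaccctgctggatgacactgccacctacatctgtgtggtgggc

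T cells without Cd4, Cd8a, Cd8b1, Foxp3 and Trdc, here called double-negative, numbered 84 and 101, and 12 in each library had Zbtb16, a transcription factor of innate-like T cells. Of these 12, Trbv13-2, a common beta partner in NKT cells, was found in 1 and 4 cells, Trbv29, another partner, in 1 and 0, and Trbv1 in 0 and 0. Of the 15 double-negative cells in each library with Klrb1c, an NK receptor, Trbv13-2 was in 4 and 1, Trbv29 in 3 and 2, and Trbv1 in 0 and 1. Over all double-negative cells, Trbv13-2 was in 15.5% and 13.9%, Trbv29 in 7.14% and 3.96%, and Trbv1 in 7.14% and 7.92%. No enrichment was read from these few cells. Trav1, the segment of the semi-invariant receptor of MAIT cells, was found in 2 cells with Zbtb16 in each library, of 2 and 3 double-negative cells with Trav1 in all. Over the 3 main gates Trav1 was in 4 cells. The gate of gamma-delta T cells, with Trdc, held 32 and 41 cells. Any Trbv UMI was in 21.9% (9.28 to 40.0) and 12.2% (4.08 to 26.2) of them. The 9 Trav15 genes, some of which carry dv in their names, were found in 4 (12.5%, 3.51 to 29.0) and 5 (12.2%, 4.08 to 26.2) gamma-delta cells, beside 3 of 200 and 0 of 70 CD8 cells and 1 conventional CD4 cell in each library. Only those named dv had UMIs, in gamma-delta cells as in the other T cell gates. Trav15-2-dv6-2 had 33 UMIs over all kept cells and none in the 3 main gates.

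CD8 T cells used a broad set of beta segments. Trbv13-2 and Trbv12-2 were each found in 44 of 200 cells of the anti-PD-1 library (22.0%, 16.5 to 28.4), and in 12 (17.1%, 9.18 to 28.0) and 10 (14.3%, 7.07 to 24.7) of 70 cells of the isotype library. Trbv1 was in 24 (12%) and 13 (18.6%) cells, Trbv19 in 26 (13.0%) and 5 (7.14%), and Trbv16 in 20 and 7 (10.0% each). In the anti-PD-1 library the interval of Trbv16 (6.22 to 15.0) lay below those of Trbv13-2 and Trbv12-2, and neighbours in the order overlapped. In the isotype library all 5 intervals overlapped. A cell counted under Trbv13-2 often had more UMIs of another segment. When each cell was assigned to its most abundant Trbv gene, Trbv13-2 led 10 of 190 cells (5.26%) and 4 of 66 (6.06%), while Trbv12-2 led 20 and 8 cells and Trbv1 led 20 and 11. The order by cells with a UMI therefore went against that by leading gene for Trbv13-2, and no rank was read for it. The chance that 2 CD8 cells of a library share their leading Trbv gene was 6.33% and 7.46%.

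**Figure D2:**
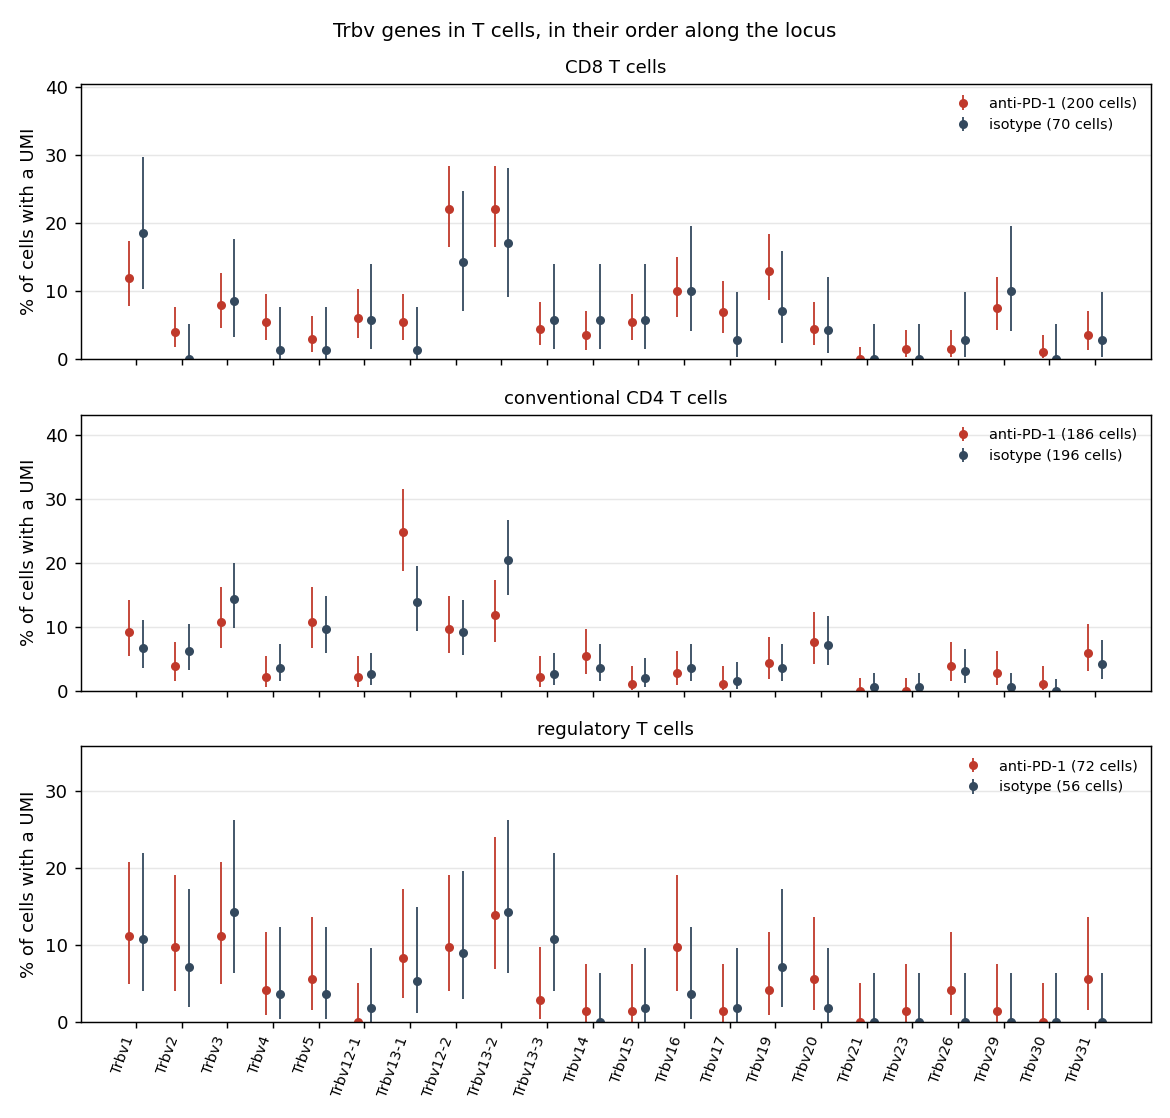
The 22 coding Trbv genes are in the order of their chromosome 6 positions on the x axis. Points give the percentage of gated cells with a UMI of the gene in the anti-PD-1 (red) and isotype (dark) libraries, and bars the exact 95% intervals. Trbv13-1 in conventional CD4 cells stands at 24.7% against 13.8%, while most other pairs of intervals overlap widely.

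Among conventional CD4 cells Trbv13-1 was the most frequent beta segment of the anti-PD-1 library, in 46 of 186 cells (24.7%, 18.7 to 31.6), and in 27 of 196 cells of the isotype library (13.8%, 9.28 to 19.4). The Newcombe interval of that difference was 3.05 to 18.8 percentage points. Trbv13-2 stood the other way, in 22 (11.8%, 7.56 to 17.4) and 40 (20.4%, 15.0 to 26.7) cells (difference -8.58 points, -15.9 to -1.17). Trbv3 was in 20 (10.8%) and 28 (14.3%) cells, Trbv5 in 20 (10.8%) and 19 (9.69%), and Trbv12-2 in 18 of each library (9.68% and 9.18%), with intervals that overlapped. Trbv12-2 was the most abundant Trbv gene in only 5 of 177 and 2 of 179 assigned cells. Trbv20 led 13 and 14 cells and Trbv1 led 11 and 13, so no rank was read for Trbv12-2 here. After thinning to 1000 UMIs the differences were 6.90 points for Trbv13-1 and -8.49 for Trbv13-2. Cells with at least 3 UMIs of myeloid, neutrophil or B cell markers made up 10.8% and 6.12% of this gate and 14.5% and 7.14% of the CD8 gate. Without them the differences were 11.1 and -10.3 points.

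In regulatory T cells, which restrain immune responses, no single segment led. Trbv13-2 was in 10 of 72 (13.9%) and 8 of 56 (14.3%) cells, Trbv3 in 8 (11.1%) and 8 (14.3%), Trbv1 in 8 (11.1%) and 6 (10.7%), Trbv12-2 in 7 (9.72%) and 5 (8.93%), and Trbv2 in 7 (9.72%) and 4 (7.14%). All of these intervals overlapped, within and between libraries.

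Some beta segments were used unequally by CD8 and conventional CD4 cells in both libraries. Trbv13-1 was in 5.50% of CD8 against 24.7% of conventional CD4 cells of the anti-PD-1 library (difference -19.2 points, Newcombe interval -26.3 to -12.3) and in 1.43% against 13.8% in the isotype library (-12.3, -18.0 to -4.87). Without the Trbv13-1/Trav4-3 cells described further on, the first difference was -5.89 points. Trbv5 was in 3% against 10.8% (-7.75, -13.3 to -2.75) and 1.43% against 9.69% (-8.27, -13.4 to -1.17). In the other direction, Trbv16 was in 10.0% of CD8 cells in each library against 2.69% and 3.57% of conventional CD4 cells (7.31, 2.44 to 12.5, and 6.43, 0.200 to 15.8). Trbv29 was in 7.50% against 2.69% (4.81, 0.304 to 9.57) and 10.0% against 0.510% (9.49, 3.91 to 18.7). These genes were picked by their intervals, which were not adjusted for the number of genes compared and treat cells of 1 clone as independent. Of the 12 isotype conventional CD4 cells with at least 2 UMIs of Trbv5, 50% also had 2 or more UMIs of Trav7-4. The Trbv5 difference without such cells was not computed. CD8 cells were the deeper ones in both libraries. After thinning the same cells to 1000 UMIs all 8 differences kept their sign but were smaller. They stood at -12.6 and -7.80 points for Trbv13-1, -1.73 and -2.05 for Trbv5, 3.85 and 2.23 for Trbv16, and 3.92 and 8.06 for Trbv29. Between regulatory and conventional CD4 cells no V gene in at least 5 cells had intervals without 0 on the same side in both libraries.

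Alpha segments were spread more thinly. By the unweighted mean of both libraries' shares, the most frequent in CD8 cells were Trav3-3, in 14 (7.00%) and 7 (10.0%) cells, Trav10, in 9 (4.50%) and 5 (7.14%), Trav7-4, in 3 (1.5%) and 6 (8.57%), Trav6-7-dv9, in 17 (8.50%) and 1 (1.43%), and Trav12-2, in 11 (5.50%) and 3 (4.29%). Within the anti-PD-1 library Trav3-1, in 13 cells, was ahead of Trav10 and Trav7-4. In regulatory T cells they were Trav9-2 in 7 and 4 cells, Trav12-3 in 2 and 7, Trav6-7-dv9 in 5 and 4, Trav6-5 in 3 and 5, and Trav16n in 3 and 4. Among the 55 coding Trav genes with at least 50% unique windows, the 18 in the middle of the locus, from Trav8n-2 to Trav12-3, gave 48.8% and 45.9% of all detections in the 3 gates, the 18 nearest Trac 34.2% and 41.2%, and the 19 farthest from Trac 17.0% and 13.0%.

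Several alpha segments had an interval of the difference between libraries that lay on 1 side of 0. The differences of 40, 50 and 24 V genes were looked at in CD8, conventional CD4 and regulatory T cells, the intervals were not adjusted for that number, and they treat cells of 1 clone as independent. In conventional CD4 cells Trav4-3 was in 31 of 186 cells (16.7%) of the anti-PD-1 library and 3 of 196 (1.53%) of the isotype library, a difference of 15.1 points (Newcombe interval 9.65 to 21.2), and its summed UMIs were 419 and 8. Without the cells of 1 combination, Trbv13-1 with Trav4-3, this difference was 0.873 points (-2.05 to 4.49). Trav7-4 was in 6 (3.23%) and 25 (12.8%) cells (-9.53, -15.2 to -4.15), Trav7-6 in 0 and 11 (-5.61, -9.77 to -2.44), Trav9-1 in 4 and 14 (-4.99, -9.67 to -0.678) and Trav14-1 in 0 and 5 (-2.55, -5.83 to -0.0578). Trav6-7-dv9 was in 16 and 7 cells (5.03, 0.177 to 10.3), Trav3-3 in 10 and 3 (3.85, 0.0835 to 8.20), Trav9-2 in 8 and 1 (3.79, 0.656 to 7.77) and Trav13n-4 in 5 and 0 (2.69, 0.229 to 6.14). Trav14-2, in 14 and 9 cells, and Trav7-5, in 9 and 9, had intervals with 0. Segments higher in the isotype library also rested on few combinations. Of its 10 cells with at least 2 UMIs of Trav7-6, 60% also had Trbv2 and 40% Trbv13-1, at 2 or more UMIs. Of its 22 such cells with Trav7-4, 40.9% also had Trbv20 and 27.3% Trbv5. Differences without these cells were not computed. After thinning, 8.65 points were left for Trav4-3, -4.03 for Trav7-4 and -2.05 for Trav7-6, and Trav14-1 stood at 0.

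In CD8 cells Trav3-1 was in 13 of 200 cells (6.50%) of the anti-PD-1 library and 0 of 70 of the isotype library, which allows a share of up to 4.29% by a limit of 3 counts (exact upper bound 5.13%; difference 6.50 points, 0.656 to 10.8). Trav6-7-dv9 differed by 7.07 points (0.102 to 11.9), but by -0.429 after thinning. Trav7-4 differed by -7.07 points (-16.0 to -1.69) and Trav4-4-dv10, in 1 and 5 cells, by -6.64 (-15.2 to -1.99). In regulatory T cells Trav12-3 differed by -9.72 points (-21.0 to -0.448), or -3.57 after thinning.

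**Figure D3:**
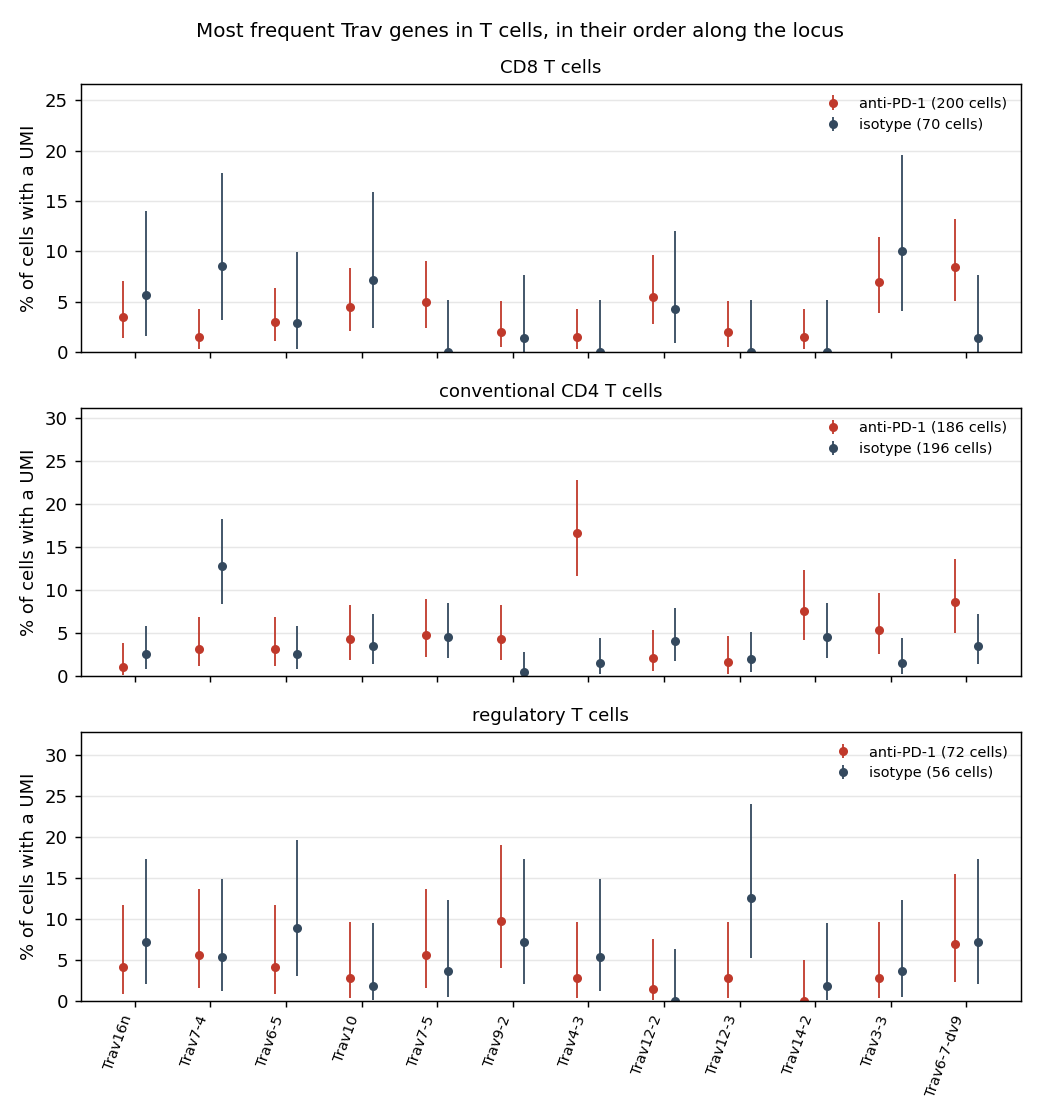
Alpha segments that were among the 5 most frequent of a gate are in the order of their chromosome 14 positions on the x axis. Points give the percentage of gated cells with a UMI in the anti-PD-1 (red) and isotype (dark) libraries, with exact 95% intervals. In conventional CD4 cells Trav4-3 stands at 16.7% against 1.53%, and Trav7-4 at 3.23% against 12.8%.

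Levels were also compared as CPM, a gene's UMIs in a gate scaled to all UMIs of that gate. Genes with at least 10 UMIs over both libraries were counted, and where a library had 0 UMIs the floor, 3 counts per gate, took their place. In CD8 cells 21 of 58 V genes were at least 2-fold higher in the anti-PD-1 library and 12 at least 2-fold lower, while 8.18% and 3.07% of all genes were. In conventional CD4 cells the counts were 16 and 18 of 55, against 5.44% and 3.08% of all genes, and in regulatory T cells 11 and 11 of 34, against 8.64% and 4.86%. The median log2 ratio of V genes was 0.48, -0.04 and -0.02 in these gates, beside 0.12, 0.08 and 0.07 over all genes. Some V genes past 2-fold in CD8 cells were set against the floor, more of them higher than lower. Examples are Trav5-1, with 20 and 0 UMIs, and Trav13-2, with 0 and 11. The CD8 gates held 200 and 70 cells, and no direction was read from these counts. The V genes past 2-fold were found in a median of 7, 9 and 5 cells over both libraries, and those not past it in a median of 7, 11 and 6.5. For example, in CD8 cells Trbv17 had 309 and 18 UMIs from 14 of 200 and 2 of 70 cells (log2 ratio 2.41, conditional binomial interval 1.73 to 3.18). Trbv15 had 274 and 19 UMIs from 11 and 4 cells (2.16, 1.49 to 2.91). These intervals count UMIs of 1 cell as independent. As shares of cells, the difference was 4.14 points for Trbv17 (Newcombe interval -3.37 to 9.01) and -0.214 for Trbv15 (-8.64 to 5.14). In conventional CD4 cells the log2 ratio of Trav4-3 was 5.34 (4.35 to 6.56), that of Trbv13-1 was 1.26 (1.08 to 1.43), that of Trbv13-2 was -1.58 (-1.93 to -1.25), and that of Trav7-6, with 0 and 74 UMIs, was -4.99 or lower.

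Of a list of 19 genes of the receptor and its signalling, 12 were measured in CD8 cells, of which 8 were higher and 4 lower in the anti-PD-1 library, with 1 past 2-fold, Tcrg-C2, a gamma chain constant gene with 32 and 3 UMIs. In conventional CD4 cells 7 of 11 were higher, 4 lower and 0 past 2-fold. In regulatory T cells 7 of 11 were higher and 4 lower, with 1 past 2-fold, Themis, a regulator of receptor signalling with 8 and 25 UMIs. Median log2 ratios of the list were 0.16, 0.08 and 0.10, near the 0.12, 0.08 and 0.07 over all genes. Of all genes, 8.18%, 5.44% and 8.64% were at least 2-fold higher in these gates, and 3.07%, 3.08% and 4.86% at least 2-fold lower. No direction was read from the counts of the list. Trac, the alpha constant gene, had log2 ratios of 0.09 (-0.19 to 0.38), -0.09 (-0.29 to 0.12) and 0.45 (0.07 to 0.84), and that of Cd3e, a signalling chain, lay between 0.00 and 0.29. Ptcra, Rag1, Rag2 and Dntt, which act in thymic T cell precursors, had 0 UMIs in the 3 gates.

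Many cells had UMIs of more than 1 V gene. Among cells with a Trbv UMI, 81 of 193 CD8 cells (42.0%) of the anti-PD-1 library and 19 of 67 (28.4%) of the isotype library had 2 or more Trbv genes. The counts were 43 of 179 (24.0%) and 47 of 180 (26.1%) in conventional CD4 cells and 14 of 65 (21.5%) and 5 of 47 (10.6%) in regulatory T cells. The second gene had fewer UMIs. In conventional CD4 cells with 2 or more Trbv genes the medians were 11 and 8 UMIs for the leading gene and 1 for the second in each library, and in regulatory T cells 5 and 5 for the leading gene and 1 and 3 for the second. In CD8 cells with 2 or more Trbv genes the leading gene had a median of 17 and 14 UMIs and the second a median of 2 in each library, and it reached 5 UMIs in 11 and 1 cells. With at least 2 UMIs asked of each gene, the shares in CD8 cells fell to 23.2% and 16.1%. Thinned to 1000 UMIs, they were 12% and 8.51%. For Trav, 58 of 148 (39.2%) and 18 of 53 (34.0%) CD8 cells, 53 of 154 (34.4%) and 57 of 153 (37.3%) conventional CD4 cells, and 23 of 54 (42.6%) and 22 of 47 (46.8%) regulatory T cells had 2 or more genes.

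The pairs of beta segments found in 1 cell were not spread evenly. Trbv12-2 and Trbv13-2, whose start positions are neighbours on chromosome 6, at chr6:41118851-41119364 and chr6:41121396-41121832, were found together most often, in 25 cells of the anti-PD-1 library and 15 of the isotype library over the 3 gates. In these cells Trbv13-2 had more UMIs in 16 and 14 cells and Trbv12-2 in 2 and 0. Cells with both were 25 of 69 and 15 of 33 cells with Trbv12-2, and 25 of 76 and 15 of 60 with Trbv13-2. The next pairs were Trbv13-2 with Trbv17 in 10 cells of the anti-PD-1 library and Trbv13-2 with Trbv14 in 8 cells of the isotype library. In cells with exactly 2 Trbv genes the fainter gene lay before the stronger one on the chromosome in 59 of 100 and 37 of 59 cells, after it in 37 and 20, and both had equal UMIs in 4 and 2.

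Combinations of a Trbv and a Trav gene, each with at least 2 UMIs in a cell, were counted next, since cells of 1 clone share both. Such combinations were looked at because of what the counts showed, so they are a description. Both chains passed this level in 118 and 34 CD8, 119 and 100 conventional CD4 and 35 and 34 regulatory T cells. Most combinations were seen in 1 cell, namely 127 of 157 and 42 of 45 in CD8 cells, 86 of 108 and 71 of 93 in conventional CD4 cells, and 48 of 49 and 36 of 42 in regulatory T cells. There were 16 combinations with 4 or more cells in a gate and library, of which 13 were in conventional CD4 cells, 2 in CD8 cells and 1 in regulatory T cells. Of the 16, 9 reached this with anti-PD-1 and 7 with isotype, and 11 had 0 cells in the same gate of the other library, or 8 where 1 UMI of each gene was enough. Over the 3 gates, 414 of all 454 combinations (91.2%) were seen in 1 library only.

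The largest was Trbv13-1 with Trav4-3, in 28 of 186 conventional CD4 cells of the anti-PD-1 library (15.1%, 10.2 to 21.0) and in 1 of 196 of the isotype library (0.510%, 0.0129 to 2.81). One more such cell was in the double-negative gate of the anti-PD-1 library. In these 28 cells Trbv13-1 had a median of 29.5 UMIs and Trav4-3 a median of 12, another Trbv gene was found in 1 cell and another Trav gene in 4. They made up 63.6% of the gate's cells with at least 2 UMIs of Trbv13-1 and 93.3% of those with at least 2 UMIs of Trav4-3. Without them and the isotype cell, Trbv13-1 was in 18 (11.4%) and 26 (13.3%) cells, a difference of -1.94 points (-8.77 to 5.22), and Trav4-3 in 3 and 2 cells. The chance that 2 cells share their leading Trbv/Trav combination was 6.36% in conventional CD4 cells of the anti-PD-1 library, 1.20% without the combination, and 2.01% in the isotype library. Trbc1 alone was found in 1 of the 28 cells, Trbc2 alone in 8 and both in 18, and these 2 constant genes are close copies whose reads may be shared.

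**Figure D4:**
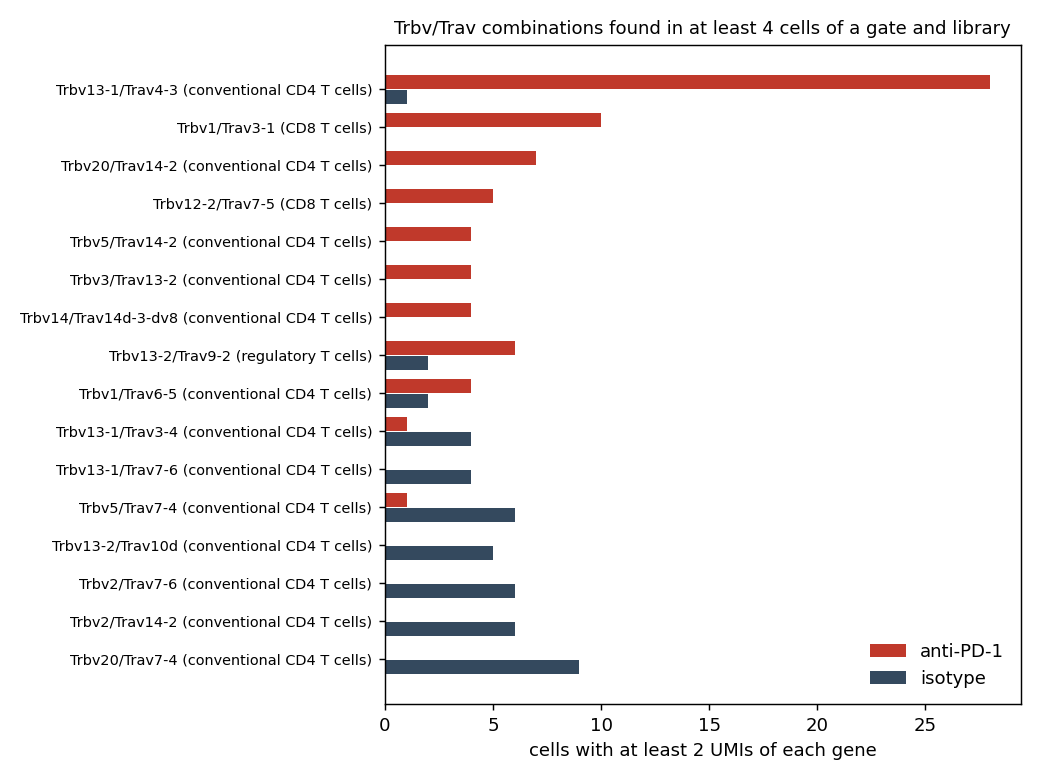
Bars give the number of cells with at least 2 UMIs of both genes of a Trbv/Trav combination, in the gate named beside it, for the anti-PD-1 (red) and isotype (dark) libraries. Trbv13-1/Trav4-3 stands at 28 cells against 1, and the other combinations at 10 or fewer.

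In CD8 cells the largest combination was Trbv1 with Trav3-1, in 10 cells of the anti-PD-1 library (5.0%, 2.42 to 9.003) and 0 of 70 of the isotype library. It made up 83.3% of the gate's cells with at least 2 UMIs of Trav3-1, and no other V gene was found in the 10 cells. Trbv12-2 with Trav7-5 followed in 5 CD8 cells. Among conventional CD4 cells of the anti-PD-1 library, Trbv20 with Trav14-2 was in 7 cells, and Trbv5 with Trav14-2, Trbv3 with Trav13-2, Trbv14 with Trav14d-3-dv8 and Trbv1 with Trav6-5 in 4 each. In the isotype library the largest was Trbv20 with Trav7-4, in 9 of 196 conventional CD4 cells (4.59%, 2.12 to 8.54) and 0 of the anti-PD-1 library. Trbv5 with Trav7-4 was in 6 cells, or 11 with 1 UMI of each gene, Trbv13-2 with Trav10d in 5, and Trbv13-1 with Trav3-4 and with Trav7-6 in 4 each. Trbv2 was found with both Trav14-2 and Trav7-6 in the same 6 cells, so these 6 cells count under 2 combinations.

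Regulatory T cells had 1 combination with 4 or more cells, Trbv13-2 with Trav9-2, in 6 of 72 cells (8.33%, 3.12 to 17.3) of the anti-PD-1 library and in 2 of 56 of the isotype library. Trbv1 with Trav6-5 was in 3 regulatory T cells of the isotype library and 1 of the anti-PD-1 library, beside 4 and 2 conventional CD4 cells of the anti-PD-1 and isotype libraries. A shared combination across libraries is no shared clone, since the junctions were not seen.

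The states of these cells were read from a short list of genes. Pdcd1, which encodes PD-1, was found in 27 of the 28 Trbv13-1/Trav4-3 cells (96.4%, 81.7 to 99.9) and in 112 of the other 158 conventional CD4 cells of the library (70.9%, 63.1 to 77.8). Gzmk, a granzyme of effector memory cells, was in 24 (85.7%) and 40 (25.3%) cells, and its level was 694 against 145 CPM (log2 ratio 2.26, 2.01 to 2.51). Cxcr6, a chemokine receptor of tissue T cells, was in 24 (85.7%) and 109 (69.0%), and Mki67, a proliferation gene, in 11 (39.3%) and 40 (25.3%). Zbtb16 was in 0 and 1 and Klrb1c in 0 and 0. Asking for 2 UMIs of each segment favours deep cells, and the median depth was 13590 UMIs in the 28 cells and 7960 in the others. Thinned to 1000 UMIs, Gzmk was left in 42.9% against 15.2% and Pdcd1 in 39.3% against 31.6%, while Cxcr6 was left in 25% against 29.1% and Mki67 in 3.57% against 9.49%. As levels, Cxcr6 had a log2 ratio of 0.13 (-0.15 to 0.41). Mki67 stood at 109 against 181 CPM (-0.73, -1.18 to -0.30), from 52 UMIs in 11 cells and 292 UMIs in 40 cells. The larger share of cells with Mki67 thus went against its level, and no direction was read. Intervals of log2 ratios here and below count UMIs of 1 cell as independent.

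Other genes were also compared with the other conventional CD4 cells of the anti-PD-1 library, and those named were chosen after their values were seen. Across all genes with at least 10 UMIs, 5.49% were at least 2-fold higher and 10.2% at least 2-fold lower in the 28 cells. Prf1, which encodes perforin, had a log2 ratio of 2.49 (1.93 to 3.07), the transcription factor Eomes 1.57 (1.09 to 2.05), Cst7, a cystatin of cytotoxic cells, 1.55 (1.23 to 1.86), Rgs16, a regulator of G protein signalling, 1.33 (1.12 to 1.53), and Lag3, an inhibitory receptor, 1.31 (1.09 to 1.53). Other genes also stood higher, Asns at 2.87, Ptpn5 at 2.56, Ptprk at 2.43 and Tg at 2.01. Shmt2, Oxsr1, Gsto1 and Mt3 stood at 1.92, 1.87, 1.69 and 1.62, so no single programme was read. After thinning, Cst7 was left in 14.3% of the 28 cells against 13.3% of the others, and Rgs16 in 35.7% against 20.25%. Prf1 was left in 7.14% against 1.27%, Eomes in 14.3% against 1.27% and Lag3 in 46.4% against 15.8%. Ifng stood at 614 and 650 CPM, with an interval that held 0 (-0.08, -0.27 to 0.11). Cd40lg, a helper ligand, was lower (-1.72, -2.82 to -0.79). Il17a had 0 UMIs in the 28 cells and 159 in 11 of the others, and Gzmc 1 UMI against 324 in 14 cells. Of genes typical of myeloid cells, Lyz2 stood at 12.6 against 503 CPM, with a UMI in 7.14% against 12.03% of cells, and C1qa at 6.31 against 70.7 CPM, in 7.14% against 6.33%. The neutrophil genes S100a8 and S100a9 stood at 353 against 133 and 585 against 246 CPM, with UMIs in 3 and 4 of the 28 cells. At least 3 UMIs of other cell types' markers were in 3 of the 28 cells (10.7%) and 17 of the other 158 (10.8%), and their part in these differences was not tested.

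**Figure D5:**
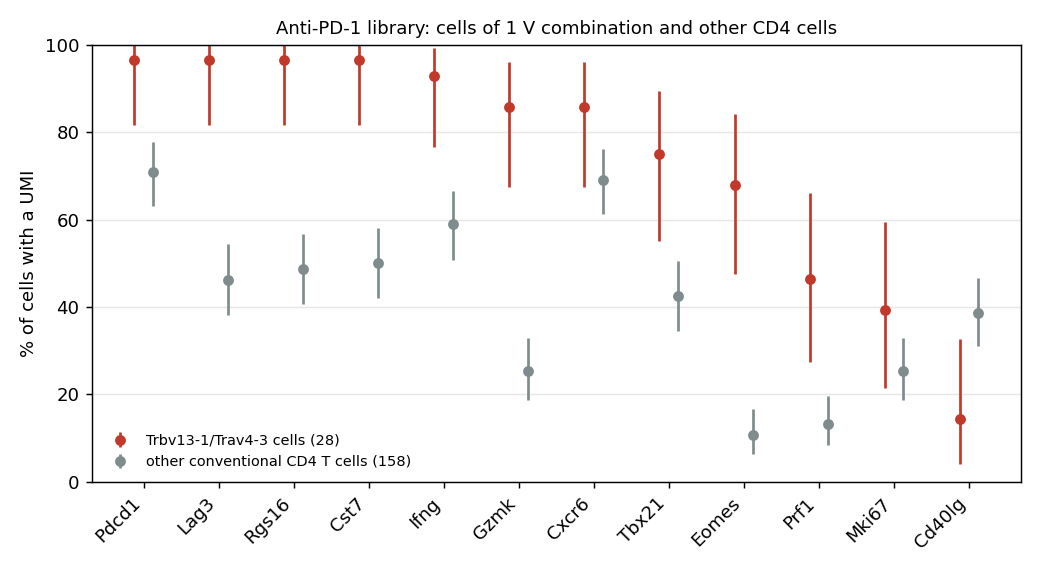
Points give the percentage of cells with a UMI of each gene on the x axis, with exact 95% intervals, in the 28 Trbv13-1/Trav4-3 cells (red) and the other 158 conventional CD4 cells (grey) of the anti-PD-1 library. Gzmk stands at 85.7% against 25.3%, Eomes at 67.9% against 10.8% and Cd40lg at 14.3% against 38.6%. Shares are shown without thinning. Tbx21 stands at 75.0% against 42.4%, while its log2 ratio of CPM was -0.38 (-0.96 to 0.17).

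The other combinations did not share 1 state. All 10 CD8 cells with Trbv1 and Trav3-1 had Pdcd1 and Gzmk, 8 had Cxcr6 and 7 had Mki67, beside 70.5%, 68.4%, 70.0% and 40.0% of the other 190 CD8 cells of the library. Of the 9 isotype CD4 cells with Trbv20 and Trav7-4, 9 had Pdcd1 and 5 had Mki67 but 0 had Gzmk, which 12.3% of the other 187 cells had. In the same gate and library, the 6 cells with Trbv5 and Trav7-4 and the 6 with Trbv2 and Trav14-2 had no Gzmk UMI either. The 7 anti-PD-1 CD4 cells with Trbv20 and Trav14-2 also had none, beside 35.75% of that library's other 179 cells. Their median depth was 5152 UMIs, against 9166 in the others. The 5 isotype CD4 cells with Trbv13-2 and Trav10d all had Gzmk, Pdcd1 and Cxcr6. Of the 6 regulatory T cells with Trbv13-2 and Trav9-2, 5 had Pdcd1 and 2 had Cxcr6, beside 68.2% and 19.7% of the other 66. With 4 to 10 cells a combination, most of these shares have intervals wide enough to hold those of the other cells.

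Pdcd1-positive and Pdcd1-negative CD8 cells were also compared within each library. Trbv1 was in 22 of 144 positive (15.3%) and 2 of 56 negative cells (3.57%) of the anti-PD-1 library, a difference of 11.7 points (Newcombe interval 1.82 to 18.9), and in 10 of 38 (26.3%) and 3 of 32 (9.38%) of the isotype library (16.9, -1.74 to 33.8). Of the 22 positive cells, 10 were the Trbv1/Trav3-1 cells. Without them Trbv1 was in 12 of 134 positive cells (8.96%), a difference of 5.38 points (-3.95 to 11.96). Trbv12-2 was in 18.8% and 30.4% of cells of the anti-PD-1 library (-11.6, -25.7 to 1.06) and 13.2% and 15.6% of the isotype library. Trbv16 was in 9.72% and 10.7% of cells of the anti-PD-1 library, and in 1 of 38 (2.63%) and 6 of 32 (18.8%) of the isotype library (-16.1, -32.8 to -1.45). Trbv13-2 and Trbv19 had intervals with 0 in both libraries. Median depth was 11800 UMIs in Pdcd1-positive and 7541 in Pdcd1-negative cells of the anti-PD-1 library, and 8958 and 6896 in the isotype library.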

How the data were processed

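Each library is a sparse table of whole-number UMI counts for 32285 genes and all cell barcodes, deposited without normalization. The tables come from Cell Ranger 5.0.1, per the file headers. The submitters' processing notes list version 2.1.1 and mm10, and the labels' protocols name 10x Genomics 3′ chemistry. The sources do not say how reads shared by similar genes were counted.

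Kept barcodes had 500 or more UMIs, 200 or more genes and no more than 10% mitochondrial UMIs. Scrublet, run through scanpy 1.11.5 with a doublet rate of 0.06, marked 0 cells by its automatic threshold. Scores above 0.25 were therefore removed, a threshold chosen after the scores were seen, which took out 313 (3.13%) and 288 (3.01%) cells. T cells were gated on marker UMIs. Shares have exact Clopper-Pearson intervals, their differences Newcombe intervals, and log2 CPM ratios conditional binomial intervals, all at 95%. With 1 library per group no test was made. The interval formulas were checked on simulated independent counts, without clustering of UMIs in cells or of cells in clones. Their coverage under such clustering was not tested. All 163 V genes were matched by identifier to GENCODE vM21.

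Named V genes were the 5 Trbv and 5 Trav genes with the highest mean share in each gate, those in at least 5 cells whose interval of the difference between libraries, or between gates with the same sign in both libraries, lay on 1 side of 0, the NKT and MAIT segments, and the 3 found most often outside T cells, with ties. Further genes are named as chosen after their values were seen. The members, gene lists and gates were chosen with earlier results of these data known. Versions were Python 3.11.15 with numpy 2.4.6, scipy 1.17.1, pandas 2.3.3, matplotlib 3.10.9 and Biopython 1.88, and R 4.3.3 with edgeR 4.0.16, used only for TMM factors.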

Additional observations from a re-analysis of the deposited data

How the results depend on the processing

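No paired analysis was possible because each group was 1 library and no result comes from a test. Changing the T cell gate, the doublet step, the mitochondrial limit, the minimum depth or the CPM scaling moved no main share, order or count beyond its counting interval or 1.5 times. Depth did. Thinned to 1000 UMIs, any Trbv UMI was in 62.5% and 67.1% of CD8, 58.1% and 58.5% of conventional CD4 and 48.6% and 39.3% of regulatory T cells (anti-PD-1, then isotype), and any Trav UMI in 28% and 35.7%, 40.3% and 29.7%, and 34.7% and 33.9%. Of Trbv-positive cells, 2 or more Trbv genes were then in 12% and 8.51% of CD8, 4.63% and 7.02% of conventional CD4 and 5.71% of anti-PD-1 regulatory T cells, and of Trav-positive cells 2 or more Trav genes in 7.14% and 20%, 12% and 10.3%, and 12% and 5.26%. Of the 5 most frequent Trbv genes, 3 stayed among the first 5 in each gate, and 2 of the Trav genes in regulatory T cells. The Trav4-3 difference was 8.65 points, and that of Trav6-7-dv9 in CD8 cells turned to -0.429. The Trbv13-1/Trav4-3 combination was left in 3 cells.

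With at least 2 UMIs asked of a gene, any Trbv gene was in 92.5% of anti-PD-1 CD8 cells, 90.3% and 85.7% of conventional CD4 cells and 75% of anti-PD-1 regulatory T cells. Any Trav gene was in 61% and 54.3% of CD8, 68.3% and 57.1% of conventional CD4 and 58.3% of anti-PD-1 regulatory T cells. Cells with 2 or more Trbv genes were then 23.2% and 16.1% of CD8, 9.52% and 12.5% of conventional CD4 and 7.41% of anti-PD-1 regulatory T cells, and with 2 or more Trav genes 25.4% of anti-PD-1 CD8, 22% and 21.4% of conventional CD4 and 28.6% of isotype regulatory T cells. Of the 5 most frequent Trav genes, 3 stayed in CD8 and in regulatory T cells. With at least 20 UMIs per gene, 11 V genes were past 2-fold in regulatory T cells, since fewer genes were counted. Without the Trbv13-1/Trav4-3 cells, an alternative chosen after seeing the data, the difference between libraries was -1.94 points for Trbv13-1 and 0.873 for Trav4-3, and CD8 minus conventional CD4 cells of the anti-PD-1 library was -5.89 for Trbv13-1.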
